A study of Mus musculus with 2 samples.

Results

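The array entries mmu-miR-2132, mmu-miR-2133, mmu-miR-2134, mmu-miR-2135, mmu-miR-2138, mmu-miR-2140, mmu-miR-2141, mmu-miR-2145, mmu-miR-2146 and mmu-miR-689 were read in the 3rd mammary gland of the mouse embryo and in the flank tissue beside it. They are 10 of the 696 miRNAs on the array and were chosen by name. They are read by 21 probes and by 200 of the 13920 miRNA spots on each array. Mouse genes were found by name in RefSeq (GRCm38.p6) for 656 of the 696 entries, and for 0 of these 10. The members were picked with their ratios between the regions known, so these ratios are given as a description and not as a test.

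A miRNA is a short RNA that is cut from a hairpin precursor and guides a repressor complex to messenger RNAs that pair with its seed, the bases near its 5′ end. Names were given to many small RNAs when short RNA libraries were first sequenced, and some of these entries were later dropped from the registry because their sequences lie within ribosomal RNA, transfer RNA or other abundant RNAs. A probe for such an entry may bind labelled RNA other than a miRNA if that RNA holds its target. The labelling used here joins a Cy3 nucleotide to the 3′ end of RNA and does not select for miRNAs, so a signal of these probes is a signal of RNA that bound them and is not taken here as the level of a miRNA.

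Both samples came from untreated ICR embryos at E13.5, when the mammary epithelium has formed a bud surrounded by mammary mesenchyme. The first was the 3rd mammary gland (here the gland), and the second was the inter mammary gland region (here the inter region), flank tissue that separates it from the 4th gland. 100 ng of total RNA was labelled per region and hybridized to 1 Agilent array. The number and sex of the embryos behind each sample are not given in the sources used here, and with 1 array per region no test of a difference was possible.

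On each array 38.1% of miRNA spots were well above background. The signal of each spot after background subtraction is given below as a mean ± SD over the spots of a probe, without outlier spots. These spots are repeated prints on 1 array, so the SD is technical. To form ratios, signals were scaled to the 75th percentile of those probes that both arrays detected (786 in the gland, 719 in the inter region), and a miRNA took the mean of its probes. Ratios are the gland over the inter region on the log2 scale, with the SD over spots of both arrays carried to the ratio. For a miRNA, the SDs of its probes were combined as for a mean of probes. The value given as its SD over spots therefore leaves out any difference between its probes and can be smaller than that of a single probe.

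All 10 members were detected on both arrays. Of their spots, 5 on each array were outliers, and the remaining 195 of each array were well above background. The dimmest of these read 51.2 in the gland and 44.5 in the inter region, above the brightest negative control spots of 17.3 and 19.2. Over the probes the coefficient of variation among spots lay between 1.16% and 10.6% (median 4.28% in the gland, 3.92% in the inter region).

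The members did not move as one group. At a threshold of 1.5-fold, 6 were lower in the gland (miR-2133, miR-2134, miR-2135, miR-2138, miR-2145 and miR-689), 2 were higher (miR-2140 and miR-2141) and 2 lay within it (miR-2132 and miR-2146). Over all 284 miRNAs detected on both arrays, members included, 9.15% were at least 1.5-fold lower and 2.11% at least 1.5-fold higher. Together these were 11.3%. Among the 274 without the members the shares were 7.30%, 1.46% and 8.76%. At least 2-fold lower were 5 of the members. The share of all miRNAs at least 2-fold lower was 5.63% of the 284 and 4.01% of the 274 without the members. The median log2 ratio was -1.11 over the members and 0.048 over all 284. Because the contrast itself was in view when the members were picked, nothing is read from the difference between these shares.

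**Figure D1:**
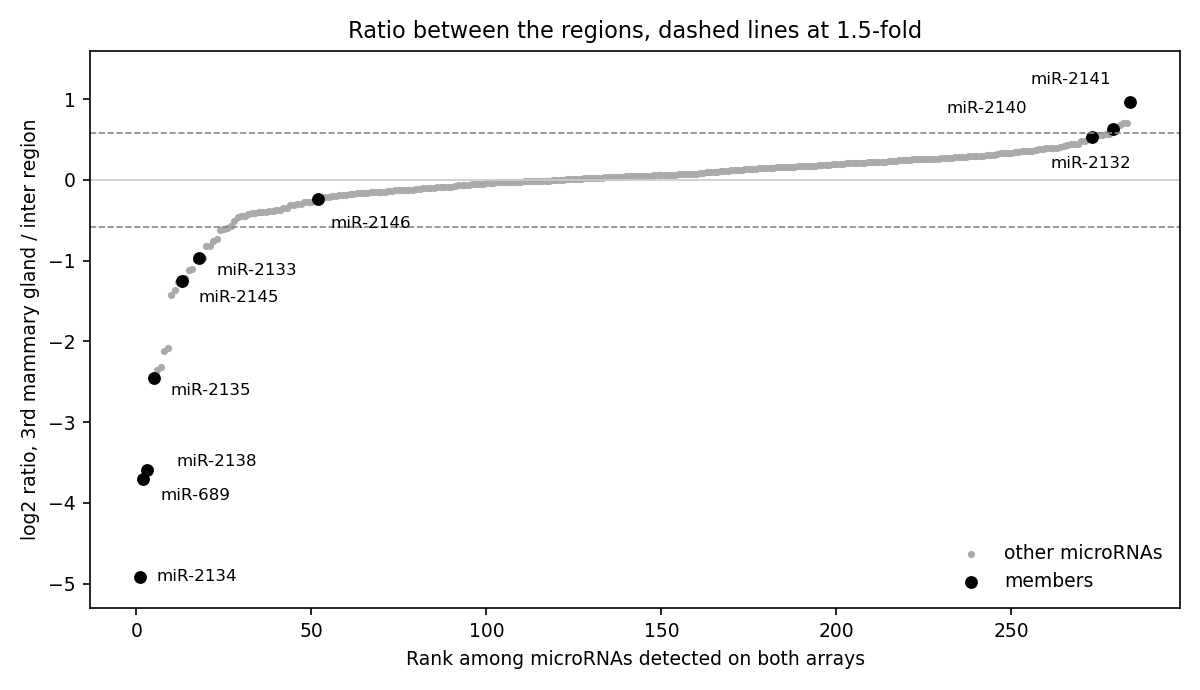
The log2 ratio of the gland over the inter region (vertical axis) is plotted by rank for the 284 miRNAs detected on both arrays, with the 10 members in black and dashed lines at 1.5-fold. miR-2134 has the lowest ratio (-4.91) and miR-2141 the highest (0.96), and miR-2146 lies among the other miRNAs at -0.23.

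The strongest difference was that of miR-2134, which was read by probes A_54_P00004749 and A_54_P00004750. The first probe read 273 ± 10.6 (SD over 10 spots) in the gland and 9030 ± 544 (SD over 10 spots) in the inter region. The second read 544 ± 23.9 and 13474 ± 1247, again over 10 spots each. On both probes every spot of the gland lay far under every spot of the inter region, with 290 as the highest and 8393 as the lowest spot of the first probe. After scaling miR-2134 was 30.2-fold lower in the gland, a log2 ratio of -4.91 (SD over spots 0.099), the lowest of the 284 miRNAs.

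miR-2138 differed in the same direction. Its probe A_54_P00004734 read 926 ± 73.0 in the gland and 12981 ± 839 in the inter region, and A_54_P00004735 read 1807 ± 89.4 and 17119 ± 1539 (SD over 10 spots each). The ratio of miR-2138 was 12.1-fold lower, or -3.59 (SD over spots 0.10). On neither probe did the spots of the regions come near each other.

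miR-689 belongs to an older part of the naming series and was dimmer in the gland. A_54_P1979 read 59.3 ± 6.30 (SD over 9 spots) there and 843 ± 19.3 (SD over 10 spots) in the inter region. A_54_P1980 read 115 ± 8.53 (SD over 8 spots) and 1231 ± 37.4 (SD over 10 spots). These signals gave a 13.0-fold lower ratio of -3.70 (SD over spots 0.093). The values of miR-689 and miR-2138 differed by 0.11 on the log2 scale, less than their combined SD over spots of 0.14. Their order is thus not resolved even against the spread of repeated prints, which leaves out differences between probes and between samples.

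miR-2135 was the only member with 3 probes. They read 894 ± 27.2 (SD over 7 spots), 925 ± 32.2 (SD over 7 spots) and 1211 ± 14.03 (SD over 5 spots) in the gland. In the inter region they read 4377 ± 213 (SD over 7 spots), 4847 ± 187 (SD over 7 spots) and 5954 ± 196 (SD over 6 spots). All of these probes showed nearly the same difference, from 5.36-fold to 5.73-fold lower in the gland, and the miRNA as a whole was 5.48-fold lower (log2 ratio -2.45, SD over spots 0.039). With miR-2134, miR-2138 and miR-689 it was among the 6 miRNAs that were at least 5-fold lower, 2.11% of the 284 detected on both arrays (0.730% of the 274 without the members). The other two were miR-1224 and miR-483.

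**Figure D2:**
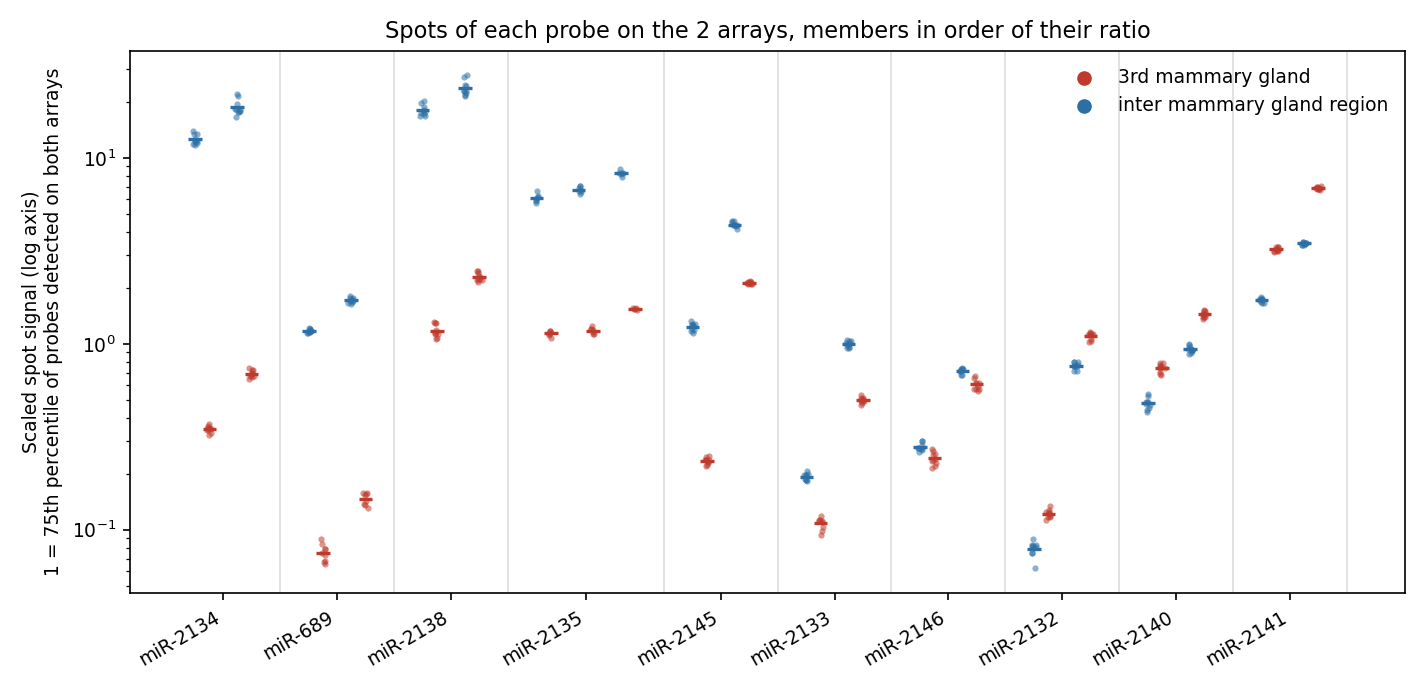
Scaled signal of every spot without outliers (points, log axis, where 1 is the percentile used for scaling) and the mean of each probe (bars), by probe and region, with the members ordered from the lowest to the highest ratio. The spots of both regions lie apart for every member except miR-2146, whose first probe overlaps.

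miR-2145 was the member whose probes went furthest apart. A_54_P00004722 read 184 ± 7.25 (SD over 10 spots) in the gland and 886 ± 40.1 (SD over 10 spots) in the inter region, which is 5.26-fold lower. A_54_P00004723 read 1670 ± 22.5 (SD over 10 spots) and 3143 ± 96.3 (SD over 9 spots), which is 2.06-fold lower. Both were lower in the gland, but by log2 ratios of -2.40 and -1.04. The ratio of the miRNA (2.38-fold lower, -1.25 ± 0.042 as SD over spots) is formed from the mean signal of its probes. It therefore lies nearer to the brighter probe and describes neither.

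miR-2133 was lower by a smaller step. A_54_P00004724 read 85.1 ± 6.36 in the gland and 139 ± 5.69 in the inter region (SD over 9 spots each). A_54_P00004725 read 392 ± 13.9 and 717 ± 26.2 (SD over 10 spots each). The spots of the regions did not overlap on either probe, and the ratio was 1.96-fold lower, or -0.97 (SD over spots 0.065).

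For miR-2146 the regions were close. A_54_P00004738 read 190 ± 14.5 (SD over 10 spots) in the gland and 201 ± 9.77 (SD over 9 spots) in the inter region, with overlapping spots. A_54_P00004739 read 475 ± 30.4 (SD over 10 spots) and 514 ± 17.3 (SD over 8 spots). Scaled, it was 1.18-fold lower (log2 ratio -0.23, SD over spots 0.083), within the 1.5-fold threshold.

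The remaining members were brighter in the gland. miR-2132 was at 95.9 ± 4.68 and 866 ± 37.0 on its probes there, against 56.9 ± 5.26 and 549 ± 20.4 in the inter region (SD over 10 spots each). Its ratio of 1.45-fold (log2 0.54, SD over spots 0.075) stayed just inside the threshold, although the spots lay apart on both probes. miR-2140 was at 583 ± 30.04 and 1131 ± 43.4, against 343 ± 23.9 and 670 ± 26.3 (SD over 10 spots each), a ratio of 1.55-fold (log2 0.63, SD over spots 0.067) just outside it. The ratios of miR-2132 and miR-2140 differed by 0.091, less than their combined SD over spots of 0.10.

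miR-2141 had the highest ratio of all miRNAs detected on both arrays. A_54_P00004726 read 2530 ± 63.8 in the gland and 1234 ± 30.5 in the inter region, and A_54_P00004727 read 5405 ± 82.2 and 2489 ± 31.9 (SD over 10 spots each). The spots were tight, with a lowest value in the gland of 2440 on the first probe and a highest value in the inter region of 1277. The ratio was 1.95-fold higher, or 0.96 on the log2 scale (SD over spots 0.026).

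Counted by probe, 13 of the 21 were at least 1.5-fold lower in the gland, 5 at least 1.5-fold higher and 3 within it. Of all 555 probes detected on both arrays, 10.1% were lower and 2.70% higher by this rule. On 20 of the 21 probes the spots of the regions did not overlap, 14 of them lower and 6 higher in the gland. This is a weak criterion, since it held for 36.0% of the 555 probes, 16.8% lower and 19.3% higher. For 9 of the 10 members it held on every probe, as it did for 25.7% of the 284 miRNAs. On A_54_P00004739 of miR-2146 it held only narrowly, with a highest scaled spot of 0.674 in the gland and a lowest of 0.676 in the inter region. Before scaling these spots read 530 and 486, so the regions overlapped on this probe and the count of probes depends on the scaling.

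**Figure D3:**
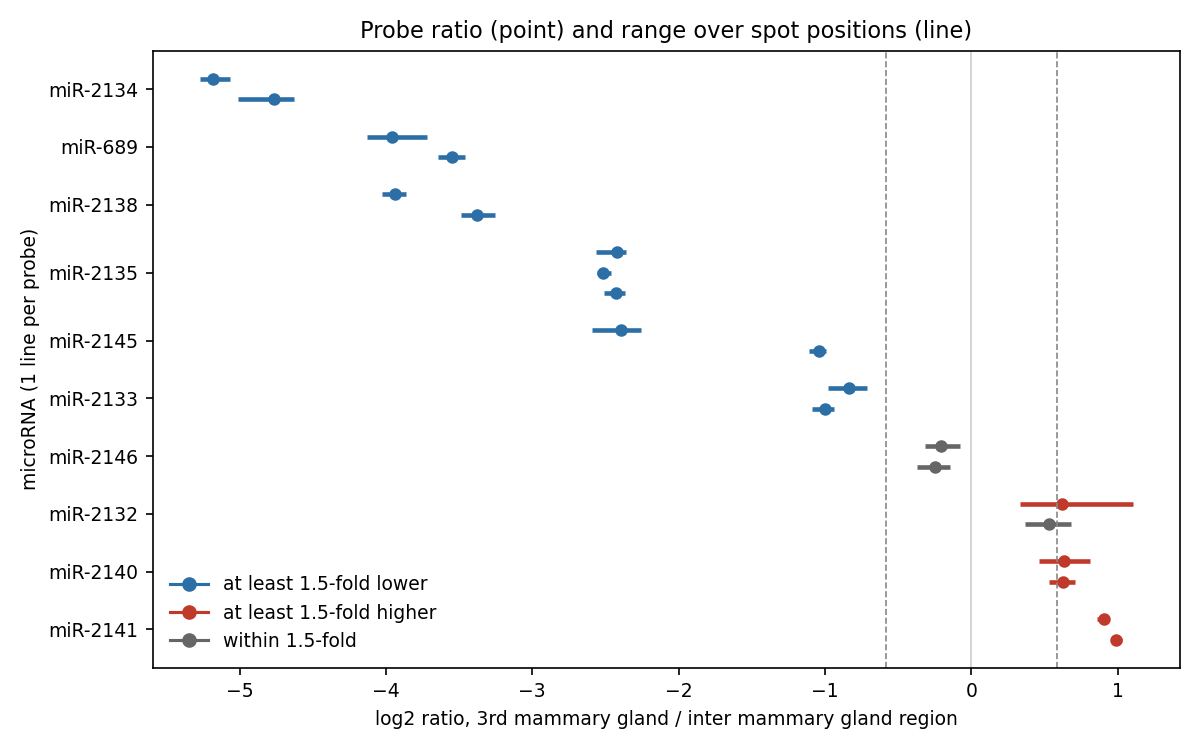
Points give the log2 ratio of each of the 21 probes (horizontal axis) and lines the range of the ratio over spot positions shared by the arrays, with dashed lines at 1.5-fold. The probes of 9 members lie 0.008 to 0.56 apart on the log2 scale, while those of miR-2145 are 1.35 apart.

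The probes of a member are named for the same target, so their ratios are not independent. Of the miRNAs, 244 had more than 1 probe that both arrays detected, and for these the highest and lowest probe ratios of a miRNA lay a median of 0.083 apart on the log2 scale. For miR-2132, miR-2135, miR-2140, miR-2141 and miR-2146 they were 0.008 to 0.097 apart, and for miR-2133 0.16. Among the members at least 5-fold lower, miR-689 (0.41), miR-2134 (0.42) and miR-2138 (0.56) were less even, while miR-2135 was not. miR-2145, at 1.35 or 2.55-fold, had the widest range of the 244. Only 0.820% of the 244, which is miR-2145 and miR-134, had probe ratios that were 1.5-fold apart or more, and the next widest after them were miR-2138, miR-1224, miR-483, miR-2134 and miR-689. In miR-2134, miR-2138, miR-2141, miR-2145 and miR-689 the first probe in order of its number gave the lower ratio and was also the dimmer. In miR-2132, miR-2133, miR-2140 and miR-2146 the first probe was also the dimmer but gave the higher ratio.

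Each probe is printed at the same positions on both arrays, so single spots could be compared position by position. For miR-2134 the difference ran from 33.5-fold to 38.6-fold over 10 positions of the first probe and from 24.7-fold to 32.2-fold over 10 positions of the second. For miR-2141 it ran from 1.82-fold to 1.92-fold and from 1.94-fold to 2.04-fold. In every member all positions went the same way. The array was also divided into 4 parts by row and column, and the probe ratios were averaged within a part. The values of miR-2134 lay between -5.13 and -4.91, those of miR-2138 between -3.72 and -3.56 and those of miR-2135 between -2.54 and -2.44. Those of miR-689 lay between -3.88 and -3.50. Both ends of this range came from parts with only 1 of its probes, the upper end from 1 spot on each array. The range of miR-689 thus also holds the difference between its probes. Values of miR-2141 lay between 0.93 and 0.96. Those of miR-2132 (0.39 to 0.64) and miR-2140 (0.55 to 0.72) fell on both sides of the 1.5-fold threshold. The median local background around member spots was 75 in the gland and 67 in the inter region, as it was around all miRNA spots.

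The share of the summed signal that the members carried differed between the arrays. Their mean signals before scaling summed to 9675 in the gland and 37870 in the inter region, which is 3.103% and 11.9% of the sum over all 696 miRNAs. The 686 other miRNAs summed to 302103 and 281136. In miR-2134, miR-2138, miR-2135 and miR-689, grouped because each was at least 5-fold lower, the sums were 2872 and 32398. Sums of probe signal do not measure amounts of RNA, because probes bind with different strength.

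Among miRNAs that are not members, the lowest ratios of those detected on both arrays were those of miR-1224 (-3.58, SD over spots 0.12), miR-483 (-2.36, SD over spots 0.055) and miR-1897-5p (-2.31, SD over spots 0.090). The highest were those of miR-690 (0.71, SD over spots 0.046), miR-181a (0.70, SD over spots 0.11) and miR-338-3p (0.68, SD over spots 0.39), all under miR-2141. Of these 6, only miR-690 and miR-338-3p stand under exactly the array's name among the mature sequences of RefSeq (GRCm38.p6). They are printed here, with bases 2 to 8 (the seed) in capitals, because their ratios, of the named ones with a sequence in that table, came closest to that of miR-2141. miR-338-3p was dim, at 28.6 in the gland and 16.4 in the inter region. The latter is under the brightest negative control spot of that array (19.2). miR-188-5p is added as one that was lower in the gland, with a ratio of -2.08.
mmu-miR-690: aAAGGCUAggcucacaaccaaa
mmu-miR-338-3p: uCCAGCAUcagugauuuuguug
mmu-miR-188-5p: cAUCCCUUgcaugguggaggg
They lie at chr16:28599940-28599961, chr11:120014781-120014802 and chrX:7248031-7248051, each on the minus strand, and have no seed in common.

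The members can be set beside other array names that matched no RefSeq gene, where the match was by name alone. The members were picked with their ratios known, so nothing is read from the difference. Of these 30 other names, 8 were detected on both arrays and 22 on neither. The 8 had log2 ratios from -0.40 to 0.42 with a median of -0.17, and 0 of them passed 1.5-fold. They include all 4 entries on the array from a list of tRNA-like probes (miR-720, miR-1274a, miR-1937b and miR-1937c), which lay between -0.27 and -0.077. Together these 4 carried 34.4% of the summed signal in the gland and 34.6% in the inter region. Most of this was miR-1937b, with 90688.8 of their sum of 107108 in the gland and 94208.5 of 110517 in the inter region. The 6 entries of a list of flank-high miRNAs, all of which matched a gene, were chosen for their low signal in the gland, so their values are not set against those of the members by count. Of these, miR-1224 and miR-188-5p were detected on both arrays and the other 4 on that of the inter region alone.

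Of the tissue markers, those of skeletal muscle passed the threshold and those of epithelium and blood did not. All 4 skeletal muscle miRNAs (miR-1, miR-133a, miR-133b and miR-206) were at least 1.5-fold lower in the gland, with log2 ratios from -1.43 to -1.12 and a summed signal of 1646 against 3610. 0 of 7 epithelial miRNAs (the miR-200 family with miR-141 and miR-429, miR-203 and miR-205) passed 1.5-fold, with ratios from -0.31 to 0.51 and a summed signal of 10955 against 9530. 0 of 4 blood miRNAs (miR-142-3p, miR-144, miR-223 and miR-451) passed it, with ratios from -0.11 to 0.44 and a summed signal of 6164 against 4274. The part of any of these tissues in the values of the members was not tested. In tissue samples, fewer cells of a type and less RNA per cell cannot be told apart.

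Feature Extraction's own total signals showed the same sides. For miR-2134 the total was 541 (error 40.7) in the gland and 14577 (error 1054) in the inter region, for miR-689 115 (error 10.1) and 1343 (error 96.8), and for miR-2141 5254 (error 395) and 2412 (error 180). The software called all 10 members detected on both arrays.

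**Figure D4:**
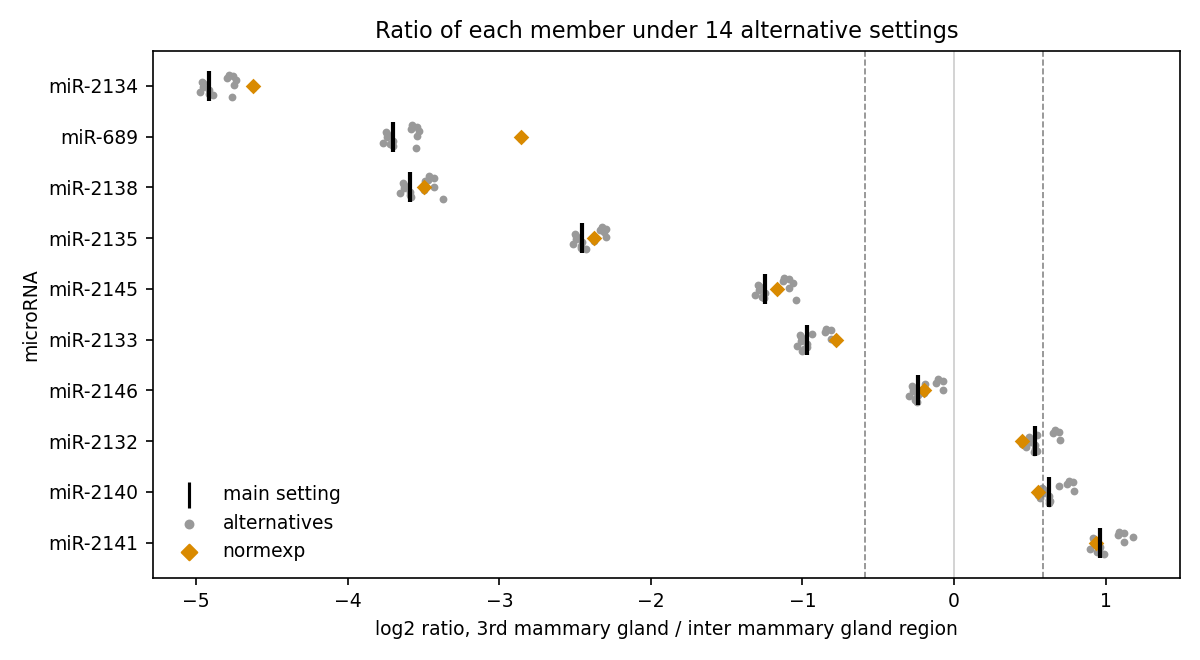
The log2 ratio of each member (horizontal axis) in the main setting (black bars), under 13 alternatives (grey) and after normexp background correction (diamonds), with dashed lines at 1.5-fold. No member changes side of 0, miR-2132 and miR-2140 cross the threshold, and miR-689 moves furthest, from -3.70 to -2.86 after normexp.

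The sides of the members held in the plot of alternative settings, but the calls nearest to the threshold did not. miR-2140 was under 1.5-fold in 3 of 14 alternatives, and miR-2132 was over it in 4 of 14. After normexp, which adds an offset to every spot, miR-689 was lower by a log2 ratio of -2.86 in place of -3.70. The 6 members that were lower passed 1.5-fold in all 14. These alternatives are not independent checks. The software's own detection call changes which miRNAs count as detected and not their signals, so the member ratios could not differ from the main setting. The deposited table gave the same ratios as the scaled total signals.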

How the data were processed

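Total RNA of the 3rd mammary gland and of the inter mammary gland region was hybridized to 1 Agilent 1-colour array each. Spots were quantified by the authors in Feature Extraction (10.7.3.1 in the file header). The deposited intensity of each spot is background-subtracted, linear and not normalized between arrays, and a deposited table gives the total intensity per miRNA. Positions and flags of spots are other columns deposited with them. The grid names another assembly than the RefSeq tables, so coordinates are those of RefSeq only.

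Control spots were dropped, and so were outliers, which made up 1.67% of miRNA spots in the gland and 2.51% in the inter region. Detection needed over 50% of a probe's spots above background by the software's flag, for at least 1 probe of a miRNA. A miRNA detected on 1 array was set against the higher of its dim signal and the lowest detected probe there. Named miRNAs are the 10 members and the 3 lowest and 3 highest ratios of other miRNAs, and others named here were chosen after their values were seen. The members, lists and tests were chosen with earlier results of these data known. Alternatives covered scaling, signal column, background, detection, outliers, summaries and threshold. The steps were tested on simulated spots. Tools were numpy 2.4.6, pandas 2.3.3 and matplotlib 3.10.9 under Python 3.11.15, plus limma 3.58.1 (normexp on the median pixel signal, offset 50) under R 4.3.3. Precision is limited by the number of arrays.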

Additional observations from a re-analysis of the deposited data

How the results depend on the processing

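No paired analysis was possible because there is only 1 array for a region. All 10 members were detected on both arrays under every alternative, and the number lower in the gland, 6 in the main setting, was 5 at a 2-fold threshold and 6 otherwise. The number higher, 2 in the main setting, was 1 with the member probes left out of the scaling, after normexp and when all spots had to exceed background, 0 at a 2-fold threshold, and 2 or 3 otherwise. The number of all miRNAs past the threshold, 41 in the main setting when those detected on 1 array are counted, was 74 with total signals after scaling (spot files or deposited table), 83 with unscaled total signals raised to 1, 65 with the software's own detection call, 22 after normexp and 21 at the 2-fold threshold, where fewer can pass. The cause of the other shifts was not tested. The share of higher among these calls was 24.4% in the main setting, 40.4% without scaling and with the median of detected probes, 40.0% after quantile normalization, 46.0% when scaled on the 75th percentile of all probes, 36.5% with scaled totals, 51.8% with unscaled totals and 13.6% after normexp. No scaling, the median of detected probes, quantile normalization and the 75th percentile of all probes raised the median log2 ratio of miRNAs detected on both arrays by 0.12 to 0.16. The order of the members' ratios was the same under each alternative apart from miR-689 and miR-2138, which changed places after normexp. No member and no member probe past 1.5-fold changed direction. The number of members whose spots did not overlap, 9, was 9 with no scaling and with outlier spots kept.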
